A study of Mus musculus with 19 samples.

Results

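CD8 T cells that had met their antigen in a tumour were set against CD8 T cells with the same receptor that had been activated in culture. Of the 19 RNA-seq libraries of the series, 5 were chosen by their titles for this comparison. All 5 were of C57BL/6 strain and carried the transgenic receptor TCR SV40-I, specific for an epitope of SV40 large T antigen. The tumour side held 3 libraries from days 8 to 9, of SV40-I cells in malignant lesions of the liver, sorted as CD8+, Thy1.1+ and low for PD1, LAG3 and CD39 (marker-low cells). The culture side held 2 libraries of effector SV40-I cells, made from naive cells that were stimulated with antibodies to CD3 and CD28, transduced with a retrovirus carrying GFP alone and expanded with the cytokine IL-2, then sorted as CD8+ and GFP+ (GFP cells). The labels give no age, sex or genotype, no time in culture, and do not say whether replicates came from separate mice or cultures, so p-values measure only the spread between these samples. Headings of the marker-low tables carry the letters KO and those of the marker-high tables WT, while no label names a deleted gene, so whether the marker-low cells lack a gene is not certain. The tissue is not certain either, since another label calls all samples splenocytes.

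A T cell receptor that meets its antigen signals through calcium and kinases to transcription factors of the NFAT, AP-1, NR4A and EGR families, which switch on cytokines, effector molecules and inhibitory receptors. In a lesion that signal can recur for days, and a high level of TOX and PD1 is a known mark of T cells under long antigen exposure. In culture, antibodies to CD3 and CD28 stand in for antigen, and growth is kept up by IL-2, whose receptor acts through STAT5 and induces its own receptor chain, survival genes and the feedback inhibitors CISH and SOCS. Naive cells from the same study, SV40-I cells sorted as CD8 and low for CD44, are given beside some values as a range over their 3 libraries.

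The libraries held 41903615, 46714354 and 48274559 counts in marker-low replicates 1, 2 and 3, and 44342549 and 45865596 counts in GFP replicates 1 and 2. CD8 T cell genes were present in all 5: Cd8a, which encodes a chain of the CD8 co-receptor, stood at 1725, 1159 and 1495 CPM (counts scaled by edgeR to library size) in marker-low cells, against 1529 and 1692 CPM in GFP cells. Of all counts in T cell receptor beta variable segments, Trbv29 took 98.3, 98.2 and 98.5% in marker-low cells and 98.1 and 98.2% in GFP cells. Both sides thus carried the same dominant beta segment. The sex of the mice differed: Xist, the RNA of the inactive X chromosome, had no counts in any marker-low or naive library, against 58.1 and 79 CPM in GFP cells, while the Y-linked Eif2s3y stood at 6.68, 12 and 10.4 CPM in marker-low cells, against 0.0363 and 0.0357 CPM in GFP cells. Sex, origin and activation in a tumour or in culture cannot be told apart here.

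RNA of other cells was mostly higher in the marker-low libraries, and macrophage and hepatocyte RNA was nearly absent from the GFP libraries. Summed over 15 macrophage genes, such as Csf1r and Lyz2, the level was 2372, 9517 and 787 CPM in marker-low libraries 1, 2 and 3, against 3.29 and 4.05 CPM in GFP libraries. Library 2 stood apart, with 5994 CPM in 12 neutrophil genes, against 626.5 and 216 CPM in marker-low libraries 1 and 3 and 10.8 and 11.6 CPM in GFP libraries. Library 3 held the least macrophage RNA, with Clec4f, Vsig4, Marco and Timd4 at 0. Hepatocyte genes summed to 185, 673 and 85.8 CPM in marker-low cells, against 0.400 and 0.571 CPM in GFP cells, and genes of B cells, NK cells and blood cells were also higher in the marker-low libraries. Of 15 macrophage, 12 dendritic, 12 neutrophil and 11 tested B cell genes, 13, 8, 6 and 9 passed the test as higher in marker-low cells and none passed as lower. B cell genes summed to 2300, 1919 and 2256 CPM in marker-low libraries 1, 2 and 3, against 556 and 634 CPM in GFP libraries. Naive libraries held 123 to 321 CPM of macrophage genes, and 2974 to 3449 CPM of B cell genes, more than any marker-low library. The part of other cells in the results below was not tested.

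**Figure D1:**
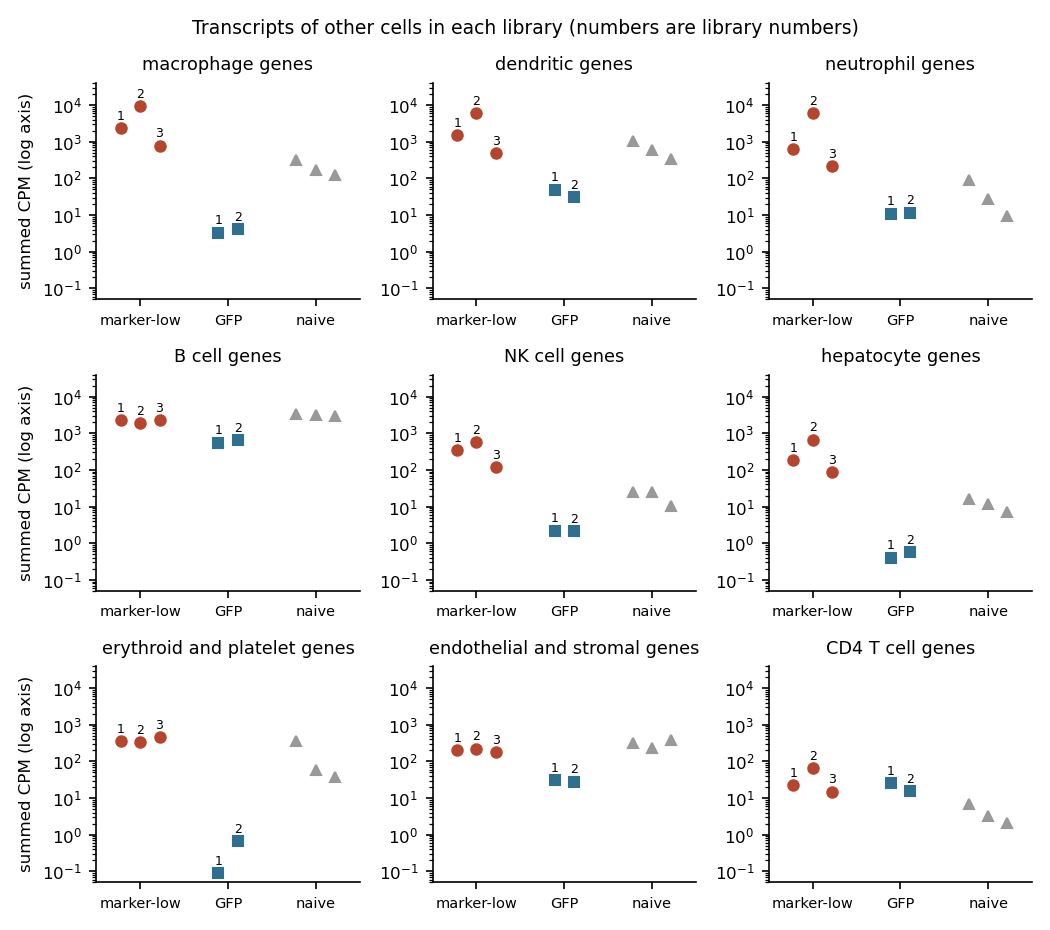
Summed CPM (log axis) of 9 lists of genes of other cells in the 3 marker-low, 2 GFP and 3 naive libraries, 1 point per library. Marker-low library 2 is the highest of the marker-low libraries for macrophage genes (9517 CPM), and every marker-low library is above both GFP libraries except for CD4 T cell genes.

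The comparison asked which genes differ between activation in a tumour and activation in culture. Of 18608 genes tested, edgeR's quasi-likelihood test called 3369 (18.1%) higher and 3267 (17.6%) lower in marker-low cells at a Benjamini-Hochberg adjusted p under 0.05, 6636 (35.7%) in all. A second rule, edgeR's test against a change of 2-fold, called 1406 genes (7.56%) higher and 2126 (11.4%) lower, 3532 (19%) in all. In 5227 genes (28.1%) every marker-low library was above both GFP libraries, and in 5781 (31.1%) every one was below. The median log2 fold change (marker-low over GFP) of all genes was 0.17, and was -0.10 when libraries were scaled by their totals alone and 0.54 with upper quartile scaling. With library totals alone 2282 genes were higher and 4009 lower, and with upper quartile scaling 4374 were higher and 2703 lower. Without GFP library 1 or 2, genes called higher numbered 1878 or 1847, and lower 2513 or 2054. Below, a gene "rose" or "fell" if it passed the first rule, and every p is an adjusted p of that test. The ± after a log2 fold change is its standard error. Each count of list members that rose or fell is to be read beside the shares of all genes, 18.1% higher and 17.6% lower.

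Fold changes differed with the base composition of the transcripts. Among 11828 tested genes with a mean above 1 CPM over all libraries, cut into 5 bins of equal size, the 2366 genes with the lowest transcript GC content (33 to 44.4%) had a median log2 fold change of -1.86, and 37.6% of these genes fell beyond 2-fold. The bin at 51.9 to 55.5% had a median of 0.78, and 5.84% fell beyond 2-fold. On the log2(CPM + 1) scale, the lowest bin stood at -1.61 from GFP cells in marker-low cells, at -0.92 in naive cells and at 0.14 in the cultured cells transduced with TOX. Of the 2126 genes that fell beyond 2-fold, 1784 (83.9%) were lower in all 15 libraries taken from mice than in all 4 cultured libraries, against 16.6% of all genes tested. For the 1406 that rose beyond 2-fold, 792 (56.3%) were higher in all 15, against 12.0% of all genes. Cells from mice, preparation and any library batch cannot be told apart here, so calls of the genes described that ended, turned or arose after an offset for GC content and length are given with them.

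**Figure D2:**
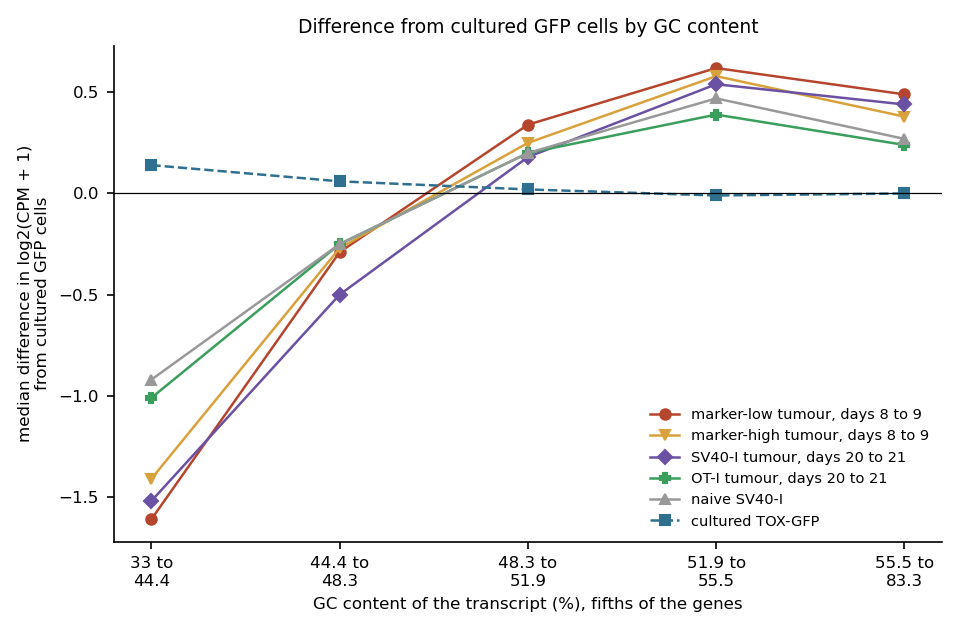
Median difference from cultured GFP cells in log2(CPM + 1), over 5 bins of the genes by transcript GC content (%), for each of the other 6 groups. All 5 groups taken from mice are below GFP cells in the lowest bin, between -0.92 and -1.61, while TOX-GFP cells are at 0.14.

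Nr4a1 and Egr2, genes of recent receptor signalling, stood far higher in marker-low cells. Nr4a1 (GRCm38, chromosome 15, 101254269 to 101274795, plus strand), a nuclear receptor gene that receptor signals switch on within the hour, stood at 786, 1323 and 1044 CPM in marker-low cells, against 7.14 and 4.85 CPM in GFP cells. All 3 marker-low libraries were also above the naive range of 54.8 to 69.7 CPM, and the log2 fold change was 7.45 ± 0.66 (adjusted p = 3.87e-06). Egr2, a zinc finger factor that restrains activated T cells, stood at 321, 498 and 351 CPM in marker-low cells, against 10.7 and 8.71 CPM in GFP cells (5.33 ± 0.93). Of 15 transcription factor genes induced by the receptor, 4 rose and 1 fell, with a median of 1.05, where 18.1% of all genes rose. The others that rose were Tox and Batf, an AP-1 partner, whose change lost its call after the GC offset (edgeR adjusted p = 0.185) and without GFP library 2 (0.0808). Nfatc2, which encodes an NFAT factor, fell at 20.9, 35.5 and 30.3 CPM in marker-low cells, against 132 and 102 CPM in GFP cells. Egr1 did not pass, at 31.9, 26.6 and 40 CPM in marker-low cells and 28.7 and 47.1 CPM in GFP cells. Neither did Nr4a2, Nr4a3, Egr3 and Irf4, at log2 fold changes of 1.23, 2.38, 1.05 and 1.48 (edgeR adjusted p = 0.291, 0.0624, 0.616 and 0.139). After the GC offset 5 of the 15 genes were higher and 2 lower.

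The immediate early genes did not move as one group. Of 18 AP-1 and immediate early genes, 5 rose and 5 fell, and all 10 passed the 2-fold rule. Fos stood at 235, 827 and 294 CPM in marker-low cells, against 3.34 and 3.18 CPM in GFP cells (7.12 ± 1.2), and Fosb at 19.8, 19 and 32.4 CPM against 0.0363 and 0.268 CPM. Zfp36 and Btg2, which encode brakes on messenger RNA and on growth, rose by 3.73 ± 0.36 and 2.53 ± 0.29. Library 2, which held the most macrophage RNA, was the highest marker-low library for Fos, Zfp36 and Btg2, and with library 3 as the only marker-low library the log2 fold changes were 6.49, 3.14 and 2.41. Among partners of Fos, Jun and Jund went the other way. Jun stood at 2.73, 3.79 and 3.02 CPM in marker-low cells, against 90.5 and 110.3 CPM in GFP cells. Jund stood at 2.79, 1.35 and 2.54 CPM against 76.3 and 83.9 CPM (-5.17 ± 0.42). Naive cells were as low as marker-low cells for these genes, with Jund at 1.08 to 3.09 CPM. The partner gene Junb did not pass, at 241, 560 and 229 CPM in marker-low cells and 306 and 269 CPM in GFP cells (0.26, edgeR adjusted p = 0.761). Klf6, Ier5 and Dusp1 fell as well.

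**Figure D3:**
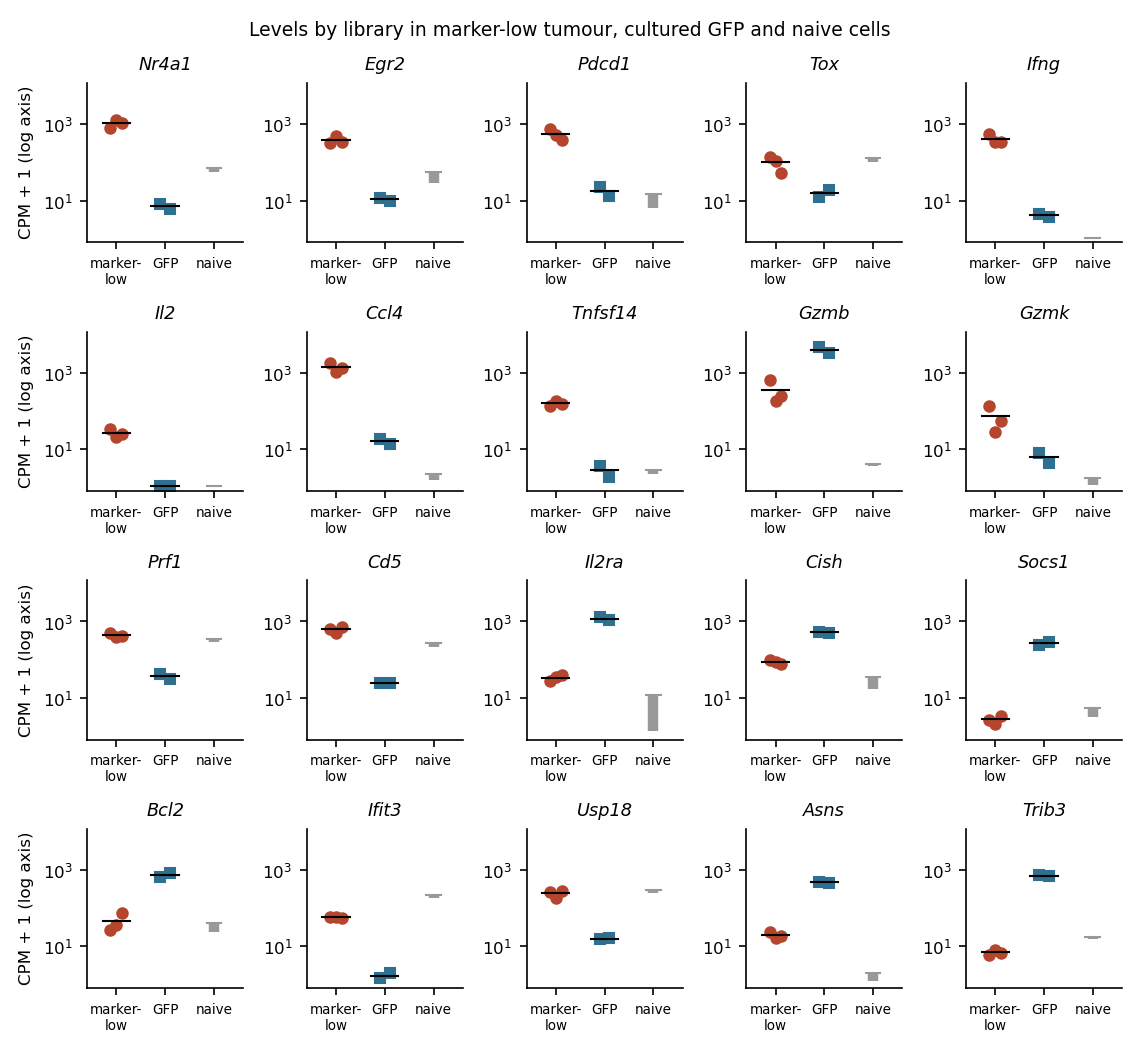
CPM + 1 (log axis) of 20 genes in marker-low (circles, 3 libraries) and GFP cells (squares, 2 libraries), with lines at the group means, and the range of 3 naive libraries in grey. The genes shown are a selection, some of them chosen after their values were seen. In every panel the marker-low and GFP libraries do not overlap, as for Nr4a1 (786 to 1323 CPM in marker-low against 4.85 and 7.14 CPM in GFP cells). Of all genes tested, 28.1% did not overlap with marker-low cells higher and 31.1% with marker-low cells lower.

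Although sorted as low for their proteins, marker-low cells held more RNA of the sort markers than GFP cells did. Pdcd1 (chromosome 1, 94038305 to 94052553, minus strand), which encodes PD1, stood at 727, 529.7 and 393 CPM in marker-low cells, against 21.3 and 12 CPM in GFP cells (5.04 ± 0.50, adjusted p = 7.52e-06). The cells sorted as high for the markers stood above both, at 2329 to 3617 CPM, and gate and any difference in genotype cannot be told apart there. Lag3 stood at 21.3, 13 and 12.6 CPM in marker-low cells, against 3.91 and 1.80 CPM in GFP cells (2.45 ± 0.53), and its adjusted p was 0.0517 without GFP library 2. Entpd1, which encodes the ectoenzyme CD39, stood at 44, 56.1 and 13.6 CPM in marker-low cells, against 11.8 and 8.87 CPM in GFP cells. Its log2 fold change was 1.88 ± 0.56 (edgeR adjusted p = 0.0173), and fell short at an edgeR adjusted p = 0.0566 without marker-low library 2, 0.0724 without GFP library 1 and 0.134 without GFP library 2, and at 0.0688 with the 5 libraries fitted alone. Entpd1 ran in the order of macrophage RNA over the marker-low libraries, and with library 3 as the only one its log2 fold change was 0.40 (edgeR adjusted p = 0.691). Tox (chromosome 4, 6686353 to 6991557, minus strand), a transcription factor gene, stood at 139, 105 and 51.6 CPM in marker-low cells, against 11.1 and 17.5 CPM in GFP cells (2.78 ± 0.42). Naive cells stood at 98.7 to 131 CPM, so the GFP cells were the group below the other two.

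Of 13 other inhibitory receptor and ligand genes, 8 rose and none fell, with a median of 3.50, and 7 passed the 2-fold rule. Cd160, a receptor for the TNF receptor family member HVEM, stood at 542, 219 and 538 CPM in marker-low cells, against 20.5 and 12.2 CPM in GFP cells (4.73 ± 0.54). Tigit, which binds CD155, stood at 48.1, 28.6 and 57.1 CPM against 4.92 and 2.96 CPM (3.50 ± 0.50). Cd200, a ligand gene, rose by 4.79 ± 0.98, Btla and Klrc1 by 4.08 ± 0.87 and 4.74 ± 0.89, and Vsir by 1.57 ± 0.24. The gene of the CD200 receptor, Cd200r1, did not pass (-3.1, edgeR adjusted p = 0.0552). It stood at 0.053, 3.48 and 0.699 CPM in marker-low cells, below both GFP libraries at 11.3 and 13 CPM. Ctla4 did not pass, at 128, 90.3 and 129.7 CPM in marker-low cells and 104 and 142 CPM in GFP cells, and neither did Havcr2, which encodes TIM3, at 8.94, 18.2 and 2.51 CPM against 21.8 and 15.1 CPM. Cd101 and Lair1, genes that myeloid cells also express, were highest in marker-low library 2, at 90.8 and 66.2 CPM, and Lair1 lost its call without that library (edgeR adjusted p = 0.169) and without GFP library 1 or 2 (0.245 and 0.0778).

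Of the 26 lists, the chemokine genes had the highest median, 6.98. After the GC offset their median was 5.92, below the 6.27 of the NK-type receptors. All 8 chemokine genes rose, and 7 passed the 2-fold rule. Ccl4, an inflammatory chemokine gene, stood at 1819, 1061 and 1316 CPM in marker-low cells, against 17.9 and 12.4 CPM in GFP cells (6.53 ± 0.52), and naive cells stood at 0.534 to 1.22 CPM. Ccl3 stood at 659.7, 309 and 324 CPM in marker-low cells, against 7.58 and 6.59 CPM in GFP cells. Xcl1, which attracts cross-presenting dendritic cells, stood at 797, 445 and 595 CPM in marker-low cells, against 0.908 and 0.696 CPM in GFP cells (9.57 ± 1.70). Ccl5 stood at 585, 159.9 and 399 CPM in marker-low cells, against 2.67 and 1.77 CPM. In these 4 genes library 1 was the highest and library 2 the lowest of the marker-low libraries. The part of other cells, NK cells among them, in this RNA was not tested. Ccl9, Cxcl10 and Cxcl16 were highest in library 2, at 347, 20.9 and 30.9 CPM, and Ccl1 lost its call without that library (edgeR adjusted p = 0.0561), without marker-low library 1 (0.0853), without GFP library 1 or 2 (0.219 and 0.162) and after the GC offset (0.0726). Cxcl16 lost its call without GFP library 2 (edgeR adjusted p = 0.0531).

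Of 16 cytokine genes, 4 rose and 5 fell. Ifng (chromosome 10, 118441046 to 118445892, plus strand), the main cytokine of CD8 effector cells, stood at 563, 336 and 350.2 CPM in marker-low cells, against 3.52 and 2.82 CPM in GFP cells (7.04 ± 0.77, adjusted p = 1.48e-05). Il2 itself stood at 33.5, 19.6 and 23.4 CPM in marker-low cells, against 0.0727 and 0.107 CPM in GFP cells (8.11 ± 1.48). Tnfsf14, which encodes the TNF family ligand LIGHT, stood at 135, 184 and 154 CPM against 2.71 and 0.892 CPM (6.45 ± 0.65). Il3 had 609 counts over the marker-low libraries and none in GFP cells, at least 176-fold higher if 3 counts are allowed to both GFP libraries together. Its call was lost without GFP library 1 or 2 (edgeR adjusted p = 0.0791 and 0.0842) and with DESeq2 (0.135). Tnf did not pass, at 183, 210.4 and 188 CPM in marker-low cells and 92.6 and 88.2 CPM in GFP cells, but passed as higher with the 5 libraries fitted alone (edgeR adjusted p = 0.0101) and with upper quartile scaling (0.0282). The lymphotoxin genes fell: Ltb stood at 183, 106 and 163 CPM in marker-low cells, against 1361 and 1264 CPM in GFP cells (-3.12 ± 0.50), and Lta at 80.9, 74 and 75.6 CPM against 615 and 544 CPM, a call lost without GFP library 1 or 2 (edgeR adjusted p = 0.0612 and 0.0548). Il24 fell by 7.87 ± 0.95, and Osm and Il10 fell as well.

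The cytotoxic genes split by molecule. Of 16 tested, 9 rose and 3 fell, with a median of 2.08. Gzmb (chromosome 14, 56258838 to 56262260, minus strand), the granzyme B gene, stood at 636, 177 and 249 CPM in marker-low cells, against 4826 and 3268 CPM in GFP cells (-3.51 ± 0.42, adjusted p = 2.70e-05). It was nevertheless above the naive range of 2.54 to 3.06 CPM in every marker-low library. Gzmc fell likewise, at 3.98, 2.20 and 1.11 CPM against 22.6 and 12.3 CPM. Gzmk and Gzmm, granzyme genes of other specificities, rose: Gzmk stood at 136, 27.1 and 53.6 CPM in marker-low cells, against 6.90 and 3.37 CPM in GFP cells (3.82 ± 0.71), and Gzmm at 237, 29.3 and 153 CPM against 0.600 and 0.750 CPM. Prf1, which encodes the pore-forming perforin, stood at 489, 389 and 412 CPM in marker-low cells, against 42.1 and 30.4 CPM in GFP cells (3.57 ± 0.42), and naive cells stood at 289 to 350.1 CPM. Fasl, the death ligand gene, stood at 188, 109 and 174 CPM against 21.3 and 11.9 CPM (3.24 ± 0.37), with naive cells at no more than 0.144 CPM. Nkg7, Ctsw and the serpin genes Serpinb9 and Serpinb6b, whose products block granule proteases, rose as well, Serpinb6b by 4.63 ± 0.52.

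**Figure D4:**
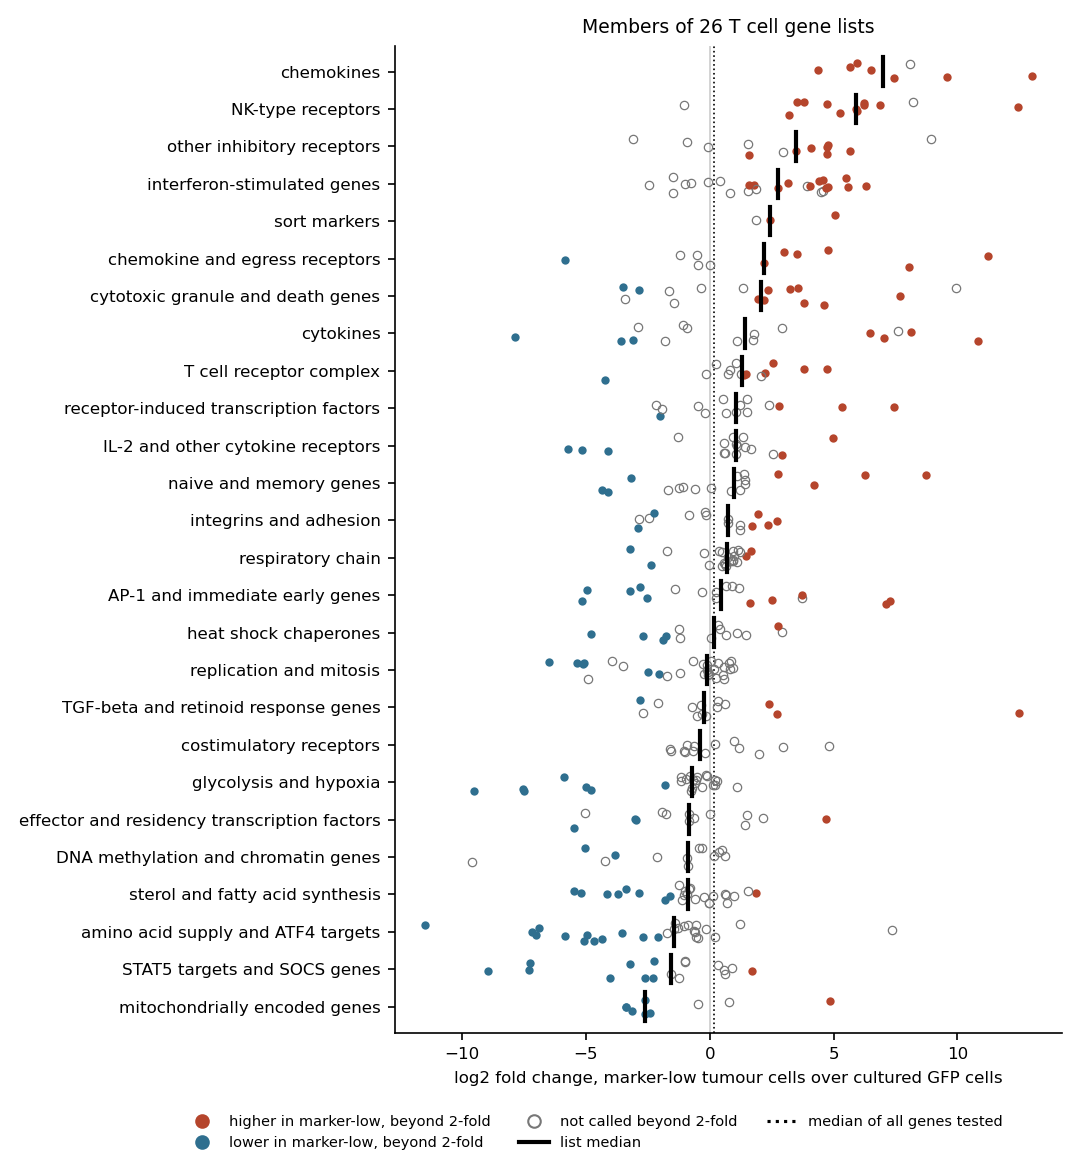
Log2 fold change of marker-low over GFP cells for the tested members of 26 T cell gene lists, 1 point per gene, with the list median as a bar and the median of all genes tested (0.17) dotted. Medians run from 6.98 in chemokines to -2.62 in mitochondrially encoded genes, and filled points passed the test against a change of 2-fold.

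Several genes downstream of IL-2 and STAT5 stood far lower in marker-low cells. Of 17 STAT5 targets and SOCS genes, 2 rose and 10 fell, with a median of -1.56, and 8 fell beyond 2-fold. Socs1 (chromosome 16, 10782240 to 10785536, minus strand), a feedback inhibitor of cytokine receptors, stood at 1.64, 1.12 and 2.38 CPM in marker-low cells, against 243 and 287 CPM in GFP cells (-7.27 ± 0.45, adjusted p = 2.70e-07). Socs2 stood at 0.690, 0.830 and 0.874 CPM in marker-low cells, against 127 and 130.2 CPM in GFP cells, and Socs3 at 6.55, 20.8 and 4.2 CPM against 104 and 90.7 CPM. Cish, which also restrains receptor signalling, stood at 94.8, 83.4 and 73.9 CPM in marker-low cells, against 543 and 501 CPM in GFP cells (-2.63 ± 0.32). For Cish the marker-low libraries were still above the naive range of 16 to 33.5 CPM, whereas for Socs1 they were within or below the naive range of 2.23 to 4.45 CPM. The survival genes split: Bcl2 stood at 26.7, 36.5 and 72 CPM in marker-low cells, against 654 and 821 CPM in GFP cells (-4.03 ± 0.55), whereas its relative Bcl2l1 rose by 0.56 ± 0.21, a call lost without GFP library 1 or 2 (edgeR adjusted p = 0.212 and 0.216), without marker-low library 1 or 3 (0.113 and 0.0714) and after the GC offset, where the change was -0.19 (0.585). Pim2, a kinase gene of cell growth, stood at 227, 354 and 267 CPM against 1418 and 1261 CPM. Lrrc32, which encodes the TGF-beta docking protein GARP, stood at 1.49, 0.0673 and 1.35 CPM in marker-low cells, against 516 and 448 CPM in GFP cells (-8.96 ± 1.42). Stat5a rose, at 201, 352 and 195 CPM against 78.8 and 74.9 CPM.

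Receptor genes of IL-2 and other cytokines changed in both directions, also within the IL-2 receptor. Il2ra (chromosome 2, 11642807 to 11693193, plus strand), the high-affinity chain of the IL-2 receptor, stood at 27, 34.1 and 37.7 CPM in marker-low cells, against 1294 and 1064 CPM in GFP cells (-5.16 ± 0.93, adjusted p = 5.67e-04). The shared chains went the other way: Il2rg rose by 0.63 ± 0.16, and Il2rb rose at 3481, 2425 and 2975 CPM in marker-low cells and 1660.1 and 1074 CPM in GFP cells (1.11 ± 0.38), and both lost their calls after the GC offset (edgeR adjusted p = 0.557 for Il2rg and 0.0546 for Il2rb). Without GFP library 1 or 2 the adjusted p of edgeR was 0.0577 or 0.252 for Il2rb, without marker-low library 1 or 3 it was 0.0868 or 0.056, and for Il2rg it was 0.0795 without GFP library 1. Il12rb2, the inducible chain of the IL-12 receptor, stood at 2.20, 1.73 and 2.69 CPM against 116 and 119 CPM (-5.73 ± 0.62), and Il12rb1 fell by 1.27 ± 0.28. Il7r, the receptor gene of the survival cytokine IL-7, stood at 0.292, 3.25 and 3.61 CPM in marker-low cells, against 31.3 and 51.9 CPM in GFP cells and 61.9 to 157 CPM in naive cells. Il10ra stood at 499, 878 and 495 CPM in marker-low cells, against 82.7 and 82.5 CPM in GFP cells (2.92 ± 0.39), and Il21r rose by 1.32 ± 0.18. In all, 7 of 17 cytokine receptor genes rose and 4 fell, with a median of 1.05.

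Genes that supply amino acids, many of them targets of the stress factor ATF4, were lower in marker-low cells than in GFP cells. Of 27, none rose and 19 fell, with a median of -1.45, and 12 fell beyond 2-fold. In 20 of the 27, all 15 libraries from mice, naive included, were below all 4 cultured libraries, against 16.6% of all genes tested. Trib3 (chromosome 2, 152337422 to 152344032, minus strand), a pseudokinase gene induced by ATF4, stood at 4.93, 7.21 and 5.68 CPM in marker-low cells, against 731 and 689 CPM in GFP cells (-6.90 ± 0.69, adjusted p = 7.46e-06). Asns, the asparagine synthetase gene, stood at 22.5, 15.4 and 18 CPM in marker-low cells, against 483 and 463 CPM in GFP cells (-4.67 ± 0.50). The transporter genes Slc1a5 for glutamine and Slc7a5 for large neutral amino acids stood at 41.9, 32.1 and 45 CPM and at 6.92, 9.52 and 9.20 CPM in marker-low cells, against 441 and 479.6 CPM and 285 and 292 CPM in GFP cells. For Asns and Slc1a5 the marker-low libraries were above naive cells, at 0.215 to 1.03 and 11.4 to 18.8 CPM, and for Trib3 they were below, at 14.8 to 16.5 CPM. Atf4 itself fell by 1.05 ± 0.17. Vldlr had 875 counts in GFP cells and none in marker-low cells, at least 336-fold lower. With the GC offset 1 gene rose and 21 fell, with a median of -1.97.

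Promoters of this list were searched for the letters TGATGNAA, a core of the sites that ATF4 binds together with its partners, on both strands and in the 250 bases before the start. Promoters were in RefSeq (GRCm38.p6) for 22 of the 27 tested genes, and 4 held a match (18.2%), against 215 of 10513 tested genes with a promoter (2.05%). A match is a description of the letters, not a measured site. The members with a match and the smallest p are shown, 5′ to 3′ on the gene's own strand, with each match in capitals, for Asns (chr6:7693210-7693459, minus strand) and for Pycr1 (chr11:120643749-120643998, minus strand), which encodes an enzyme of proline synthesis.
Asns: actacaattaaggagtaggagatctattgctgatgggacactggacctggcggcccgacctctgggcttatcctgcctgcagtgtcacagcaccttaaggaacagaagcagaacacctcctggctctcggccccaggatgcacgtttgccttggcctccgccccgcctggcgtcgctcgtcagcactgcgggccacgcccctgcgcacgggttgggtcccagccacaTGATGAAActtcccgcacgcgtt
Pycr1: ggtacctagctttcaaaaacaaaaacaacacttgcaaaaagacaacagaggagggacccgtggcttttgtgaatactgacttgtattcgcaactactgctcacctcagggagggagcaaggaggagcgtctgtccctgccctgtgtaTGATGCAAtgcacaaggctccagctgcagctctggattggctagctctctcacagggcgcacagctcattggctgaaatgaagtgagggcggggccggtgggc
In Pycr1, the values were 1.41, 2.54 and 3.74 CPM in marker-low cells and 56.8 and 49.3 CPM in GFP cells (-4.37 ± 0.81). Matches also stood before Chac1 and, with 2 matches, before Slc7a11, a cystine transporter gene that did not pass (0.21, edgeR adjusted p = 0.88) and was higher after the GC offset (2.99, edgeR adjusted p = 0.0282). In the STAT5 and SOCS list the letters TTCNNNGAA, which STAT factors bind, were in 1 of 13 promoters (7.69%), that of Socs3, against 6.11% of all.

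Most interferon-stimulated genes on the list were higher in marker-low cells than in GFP cells. Of 25, 16 rose and 2 fell, with a median of 2.75, and 12 rose beyond 2-fold. In 12 of the 25, all 15 libraries from mice, naive included, were above all 4 cultured libraries, against 12% of all genes tested. Ifit3 (chromosome 19, 34583531 to 34588731, plus strand), an antiviral RNA-binding protein gene, stood at 58.2, 59.1 and 55.5 CPM in marker-low cells, against 0.491 and 0.964 CPM in GFP cells (6.30 ± 0.80, adjusted p = 4.02e-05). Naive cells stood at 179.5 to 228 CPM. Usp18, which removes the ubiquitin-like ISG15 and restrains interferon receptors, stood at 271, 182 and 289.7 CPM in marker-low cells, against 14.5 and 15.3 CPM in GFP cells (4.05 ± 0.43). Irf7 and Irf9, factors of the interferon response, rose by 4.39 ± 0.56 and 1.77 ± 0.30. Oas1a, an antiviral enzyme gene, belongs like Ifit3 and the Klr receptors to families with near copies, whose counts are uncertain. It stood at 113, 126.5 and 80 CPM in marker-low cells, against 4.16 and 3.55 CPM in GFP cells (4.79 ± 0.58). Isg20 and Ifit2 fell, by 1.47 ± 0.36 and 2.46 ± 0.70, and Ifit2 lost its call after the GC offset (edgeR adjusted p = 0.467) and without GFP library 2 (0.0796). Oasl2 was highest in library 2, at 172 CPM, against 31.8 and 16.3 CPM in marker-low libraries 1 and 3.

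The letters GAAANNGAAA, to which interferon-activated factors bind, were searched in the same way. Of 25 tested genes 18 had a promoter in RefSeq, and 9 held a match (50.0%), against 289 of 10513 tested genes (2.75%). The 2 members with a match and the smallest p are Oas1a (chr5:120907526-120907775, minus strand) and Ifit3 (chr19:34583279-34583528, plus strand), with the matches in capitals, which overlap in Oas1a and lie on the other strand in Ifit3.
Oas1a: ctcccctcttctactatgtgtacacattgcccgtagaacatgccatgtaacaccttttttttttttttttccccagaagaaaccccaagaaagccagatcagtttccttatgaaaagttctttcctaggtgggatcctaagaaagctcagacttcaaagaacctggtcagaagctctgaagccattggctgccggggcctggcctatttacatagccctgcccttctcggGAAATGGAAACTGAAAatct
Ifit3: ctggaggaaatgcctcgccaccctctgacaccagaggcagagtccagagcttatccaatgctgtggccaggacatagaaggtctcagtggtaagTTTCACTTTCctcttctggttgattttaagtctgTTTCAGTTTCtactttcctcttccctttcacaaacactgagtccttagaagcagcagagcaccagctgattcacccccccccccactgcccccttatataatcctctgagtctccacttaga
Matches also stood before Ifit1, Bst2 and Stat2, which did not pass the test. After the GC offset Bst2 was lower (-1.27, edgeR adjusted p = 8.07e-04), and without marker-low library 1 Ifit1 was lower (-5.23, edgeR adjusted p = 0.0472).

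**Figure D5:**
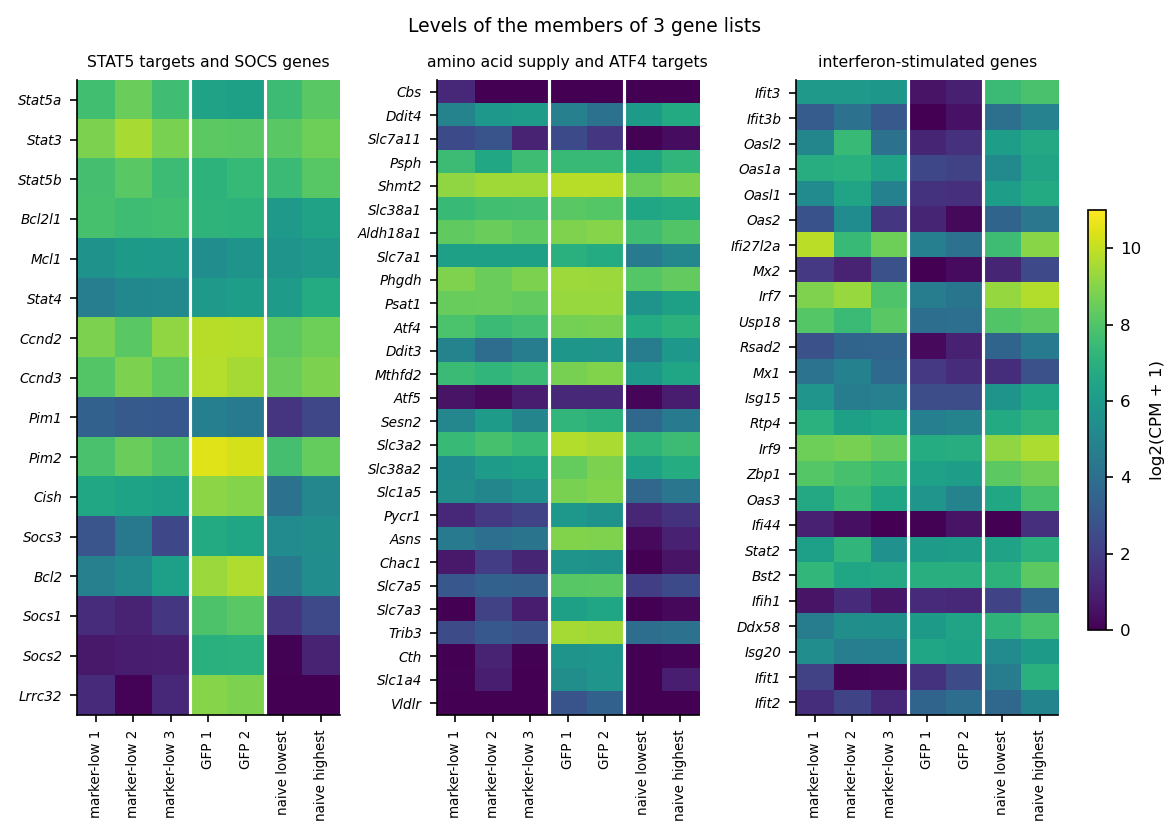
Levels in log2(CPM + 1) of tested members of the STAT5 and SOCS (all but 1), amino acid and interferon lists (all), genes in rows ordered by log2 fold change, with 1 column per marker-low and GFP library and the lowest and highest of 3 naive libraries. Socs1, Socs2, Trib3 and Slc1a4 are high in both GFP libraries alone, while Ifit3, Irf7 and Usp18 are high in marker-low and naive and low in GFP cells.

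Of 25 genes of glycolysis and the hypoxia response, 1 rose and 13 fell, with a median of -0.71. Among glycolytic enzymes, Tpi1 and Pgk1 fell by 1.18 ± 0.29 and 1.15 ± 0.27, and Pkm, the last enzyme of the pathway, did not pass, at 3283, 4090.5 and 3323 CPM in marker-low cells and 4995 and 3809.5 CPM in GFP cells. After the GC offset 18 of the 25 were lower and 1 higher, with a median of -1.27, and Pkm, Gapdh, Pgam1, Ldha and Pfkl were among those lower, Pkm at -0.94 on the log2 scale (edgeR adjusted p = 0.00532). With library totals alone Pkm was lower as well (edgeR adjusted p = 0.0325). Tpi1 lost its call without GFP library 1 (edgeR adjusted p = 0.064). The 7 falls beyond 2-fold were in genes of the hypoxia response. Hif1a (chromosome 12, 73901375 to 73947530, plus strand), the oxygen-sensitive factor gene, stood at 1.64, 2.04 and 4.11 CPM in marker-low cells, against 359 and 588 CPM in GFP cells (-7.50 ± 0.71). Naive cells stood at 5.71 to 12.7 CPM. Bnip3, a gene of mitochondrial clearance, stood at 4.24, 12.4 and 7.30 CPM against 256 and 259 CPM (-5.01 ± 0.46), and Egln3, Ero1l and Pdk1 fell by 5.87 ± 0.88, 7.53 ± 0.88 and 4.79 ± 0.49. Vegfa, the vessel growth factor gene, stood at 0, 0.0673 and 0.0219 CPM in marker-low cells, against 20.9 and 28.2 CPM in GFP cells.

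Of 22 nuclear genes of the respiratory chain, 11 rose and 3 fell, with a median of 0.69, and after the GC offset 8 rose and 4 fell, with a median of 0.06. Uqcrc1, a complex III subunit gene, stood at 1184, 1039 and 1219.9 CPM in marker-low cells, against 361 and 361 CPM in GFP cells (1.67 ± 0.16). Genes encoded by the mitochondrial genome went the other way, with 1 of 9 higher, 6 lower and a median of -2.62. For mt-Nd5 the values were 14.2, 8.96 and 10.7 CPM in marker-low cells, against 96.3 and 142 CPM in GFP cells, and mt-Cytb fell by 2.62 ± 0.40. After the GC offset 3 of the 9 were higher and 5 lower. Their share of all counts was 0.214, 0.150 and 0.221% in marker-low cells and 0.382 and 0.504% in GFP cells.

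Genes of sterol and fatty acid synthesis fell more often than they rose, with 12 of 26 lower, 2 higher and a median of -0.87. Sqle, a sterol pathway enzyme, stood at 16.7, 31.6 and 18.8 CPM in marker-low cells, against 161 and 164 CPM in GFP cells (-2.86 ± 0.35), and Hmgcs1 and Insig1 fell by 3.71 ± 0.73 and 4.15 ± 0.67. Dhcr7, an enzyme of the last steps, rose by 1.86 ± 0.24, at 121, 106 and 96 CPM against 35.6 and 23.7 CPM. The sterol regulator genes Srebf1 and Srebf2 did not pass, and Srebf1 was higher after the GC offset (0.71, edgeR adjusted p = 0.0187).

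Of 30 replication and mitosis genes, 1 rose and 9 fell, with a median of -0.12, where 18.1% of all genes rose and 17.6% fell. The libraries did not overlap for 6 genes that were higher and 12 that were lower in marker-low cells. Over all genes tested these shares were 28.1% higher and 31.1% lower. Rrm2, a gene of nucleotide supply in S phase, stood at 287, 255 and 290.1 CPM in marker-low cells and 470.5 and 418 CPM in GFP cells, against 2.83 to 10.6 CPM in naive cells, and Aurkb of mitosis at 130.05, 112 and 105 CPM in marker-low cells and 135 and 112 CPM in GFP cells. Neither passed the test. For Rrm2 every marker-low library was below both GFP libraries, and it passed as lower with the 5 libraries fitted alone (edgeR adjusted p = 0.0382) and with library totals alone (0.0325). Top2a and Ccna2 fell, Top2a at 6.47, 7.23 and 15.5 CPM in marker-low cells against 309 and 359 CPM in GFP cells (-5.10 ± 0.75), and Ccna2 by 5.08 ± 0.71. The cell cycle inhibitor gene Cdkn1a, a target of p53, stood at 7.96, 23.1 and 4.13 CPM in marker-low cells, against 561 and 399 CPM in GFP cells (-5.35 ± 0.86).

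Naive and memory genes changed in both directions. Of 18, 5 rose and 3 fell, where 18.1% of all genes tested rose and 17.6% fell. Their median was 0.98 (0.33 after the GC offset). Cd27, a costimulatory receptor of naive and memory cells, stood at 1112, 569.9 and 1081 CPM in marker-low cells, against 133 and 141 CPM in GFP cells (2.75 ± 0.33). Slamf6, Cxcr5 and Dapl1 rose by 4.22 ± 1.02, 6.26 ± 1.34 and 8.74 ± 1.73, with Cxcr5, a B cell zone homing receptor, at 137, 147 and 197 CPM against 1.42 and 2.75 CPM. Tcf7, the memory factor gene that encodes TCF1, did not pass, at 548, 602 and 727 CPM in marker-low cells and 232 and 229 CPM in GFP cells, with no overlap between the groups and naive cells at 1212 to 1534 CPM. It passed as higher with the 5 libraries fitted alone (edgeR adjusted p = 0.00504). Slamf6 lost its call without GFP library 1 (edgeR adjusted p = 0.0584). Satb1 and Foxp1, regulators of the naive state, fell: Satb1 stood at 8.14, 8.84 and 16.7 CPM in marker-low cells, against 224 and 231 CPM in GFP cells (-4.34 ± 0.65).

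Among effector and residency factors, 2 of 14 rose and 5 fell, with a median of -0.83. Runx3, a factor of cytotoxic fate, stood at 11, 6.44 and 14.5 CPM in marker-low cells, against 82.9 and 89.7 CPM in GFP cells (-3.02 ± 0.41), and Tbx21 fell by 1.75 ± 0.60, a call lost without marker-low library 2 or 3 (edgeR adjusted p = 0.0928 and 0.071) and without GFP library 1 or 2 (0.145 and 0.0848). Bcl6, which opposes Prdm1, rose by 4.71 ± 0.86, at 5.81, 22.3 and 12.9 CPM against 0.345 and 0.696 CPM. Prdm1 itself did not pass, at 1.51, 6.31 and 0.284 CPM in marker-low cells and 10.4 and 10.2 CPM in GFP cells, but passed as lower without marker-low library 2 (edgeR adjusted p = 0.0423).

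Of 11 chemokine and egress receptor genes, 6 rose and 1 fell, with a median of 2.18. Cxcr3, the receptor of interferon-induced chemokines, stood at 1208, 568 and 951 CPM in marker-low cells, against 117 and 114 CPM in GFP cells (2.98 ± 0.64). Gpr183, an oxysterol receptor gene, and S1pr4 rose by 4.78 ± 0.64 and 2.18 ± 0.34, and Ccr4 fell by 5.87 ± 1.27. Cx3cr1 was highest in library 2, at 78.3 CPM, against 4.54 and 2.43 CPM in marker-low libraries 1 and 3. Of 15 integrin and adhesion genes, 5 rose and 3 fell, where 18.1% of all genes rose and 17.6% fell. The 2 chains of LFA-1 rose, Itgb2 at 2097, 3053 and 1938 CPM in marker-low cells against 457 and 459.6 CPM in GFP cells (2.37 ± 0.22) and Itgal by 1.72 ± 0.20, while Itgb1 and Itgb7 fell by 2.91 ± 0.44 and 2.27 ± 0.55. Cd44, the activation marker gene, stood at 104, 241 and 144 CPM against 26.5 and 23.5 CPM, a call lost without GFP library 1 or 2 (edgeR adjusted p = 0.0506 and 0.0637).

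NK-type receptors rose in 11 of 13 genes and 1 fell, with a median of 5.92 (5.27 with genes without counts in GFP cells at their lower bound). The gene that fell was Cd226, an activating receptor gene that is also on the costimulatory list, and after the GC offset all 13 were called higher. Klrb1c, which encodes NK1.1, stood at 48, 41.3 and 43.5 CPM in marker-low cells, against 0.454 and 0.982 CPM in GFP cells (5.94 ± 0.62), and Klrk1, the NKG2D gene, at 140.4, 50.2 and 123 CPM against 8.05 and 6.92 CPM. Fcer1g, an adapter that macrophages and NK cells also use, followed the macrophage genes at 132, 227 and 33 CPM in marker-low libraries 1, 2 and 3, against 1.31 and 0.910 CPM in GFP cells. The NK cell gene Ncr1 stood at 25.5, 17.5 and 3.15 CPM in marker-low cells and had no counts in GFP cells, and its call was lost without GFP library 1 or 2 (edgeR adjusted p = 0.0565 and 0.0602). Ncr1, Klrb1c and Fcer1g are also on the list of NK cell genes summed above as RNA of other cells. How much of the NK-type RNA came from T cells was not tested.

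The T cell receptor complex itself was higher by RNA for some chains. Of 14 genes, 7 rose and 1 fell, with a median of 1.31. Cd5, an inhibitor of receptor signalling whose level follows signal strength, stood at 646, 493 and 736 CPM in marker-low cells, against 23.9 and 23.4 CPM in GFP cells (4.72 ± 0.28, adjusted p = 2.03e-07), with naive cells at 208 to 276 CPM. Cd6, its relative, rose by 3.81 ± 0.56, Cd3e by 2.22 ± 0.22 and Trac, the alpha chain constant gene, by 2.53 ± 0.33. Ptprc, which encodes CD45, fell by 4.25 ± 0.61, and naive cells stood between, at 216 to 426 CPM. In bulk RNA, fewer cells of a type and less RNA per cell cannot be told apart.

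Among 14 costimulatory receptor and ligand genes, 2 rose and 2 fell, where 18.1% of all genes rose and 17.6% fell. None passed the 2-fold rule. Tnfrsf9 and Tnfrsf14 rose by 0.98 ± 0.34 and 1.2 ± 0.36, and Cd226 and Tnfsf8 fell by 1.04 ± 0.36 and 1.57 ± 0.46. All 4 lost their calls under several alternatives. After the GC offset Cd226 was called in the other direction (1.48, edgeR adjusted p = 2.23e-04), and the other 3 were not called. Without GFP library 1 or 2 the edgeR adjusted p was 0.0619 or 0.245 for Cd226 and 0.1 or 0.239 for Tnfrsf9, and without marker-low library 1, 2 or 3 it was 0.0779, 0.0558 or 0.0516 for Tnfrsf9. For Cd226 it was 0.103 without marker-low library 2 and 0.0523 without marker-low library 3, for Tnfrsf14 0.207 without GFP library 1, and for Tnfsf8 0.0614 without marker-low library 1 and 0.0893 without GFP library 2. Heat shock chaperone genes rose in 2 and fell in 5 of 14, with Hsp90aa1 down by 4.78 ± 0.83 and Dnaja1 by 1.79 ± 0.34, and Dnaja1 turned to 0.57 after the GC offset. Among 14 TGF-beta and retinoid response genes, 3 rose and 1 fell, against 18.1% and 17.6% of all genes. Ldlrad4, a brake on TGF-beta signalling, rose by 2.71 ± 0.59, and Dhrs3, a retinaldehyde reductase gene, was at least 597-fold higher but followed the macrophage genes, at 9.76, 36.5 and 1.55 CPM in marker-low libraries 1, 2 and 3. Of 13 DNA methylation and chromatin genes none rose and 5 fell, where 17.6% of all genes fell. After the GC offset 1 heat shock gene was higher and 3 were lower, 4 TGF-beta and retinoid genes were higher and none lower, and 2 chromatin genes were lower. Ezh2, the methyltransferase of the Polycomb complex, stood at 4.62, 5.81 and 9.05 CPM in marker-low cells, against 78.5 and 108 CPM in GFP cells (-3.84 ± 0.55), and Sirt1, a deacetylase gene, stood at 0, 0.112 and 0.153 CPM against 2.96 and 3.18 CPM, a call lost after the GC offset (edgeR adjusted p = 0.0518).

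Across all genes the rises with the smallest p included 2 brakes on receptor signalling and an adenosine receptor. Lax1, an adapter that restrains lymphocyte receptors, stood at 393, 356 and 451 CPM in marker-low cells, against 39.6 and 40.9 CPM in GFP cells (3.31 ± 0.19, adjusted p = 1.49e-07), beside Cd5 above. Adora2a, an adenosine receptor gene, stood at 237, 202 and 222 CPM against 5.67 and 4.23 CPM (5.47 ± 0.35). Adgre5, an adhesion receptor gene, stood at 1213, 1818 and 1119.7 CPM against 62.5 and 73.8 CPM. Pes1, a ribosome assembly gene, stood at 405, 407 and 424 CPM against 59.2 and 46.6 CPM, and Mapre2, Lrmp and Arl5c rose by 2.93 ± 0.19, 3.01 ± 0.20 and 3.35 ± 0.23. Library 2 was not the highest marker-low library for Lax1, Adora2a, Pes1, Lrmp and Arl5c, and was for Adgre5.

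The falls with the smallest p, besides Socs1, were Pitpna, Map2k2, Rab10, Rasgrp1, H2afy, Srrm2 and the clone-named locus RP24-482A24.5. Rasgrp1, which links the receptor to RAS, stood at 4.16, 5.84 and 8.83 CPM in marker-low cells, against 358 and 419 CPM in GFP cells (-5.95 ± 0.43), with naive cells at 30.2 to 53.6 CPM. Map2k2, a kinase gene of the same pathway, stood at 10.5, 7.29 and 10.1 CPM against 130.3 and 136 CPM. Pitpna, a lipid transfer gene, stood at 16, 17.8 and 15.1 CPM against 219 and 278 CPM, and naive cells at 12.6 to 20.3 CPM.

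Most of the largest rises by fold were in genes that ran in the order of macrophage RNA over the marker-low libraries. Tgfbi, an extracellular matrix gene of macrophages, stood at 97.6, 624 and 26.5 CPM in marker-low libraries 1, 2 and 3 and had 1 count over the GFP libraries. Cd300a, Cd300lb, Fn1, Ctsh and Csf2rb, genes that myeloid cells express, ran in the same order, with library 2 highest and library 3 lowest, and Ccl9 is given above. Rasgef1a, a RAS exchange factor gene with no counts in GFP cells, was at least 577-fold higher, at 15.5, 20.4 and 10.9 CPM, and lost its call without GFP library 1 or 2 (edgeR adjusted p = 0.0712 and 0.0761). Of the largest falls, Kcna3, a T cell potassium channel gene, was at least 862-fold lower and Ddias, a survival gene, at least 720-fold lower. Phlda3, a target of p53, stood at 0.0265, 0 and 0.0219 CPM in marker-low cells, against 36.1 and 37.8 CPM in GFP cells, and Gpt2, which makes alanine and feeds on glutamate, at 0.769, 0.0673 and 0 CPM against 138 and 177 CPM. Slc39a8, a zinc importer gene, had 3 counts over the marker-low libraries, against 2916 counts in GFP cells, and RP23-185B14.1, Xist and Vegfa were also among the 8 largest falls.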

How the data were processed

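RNA was measured in 19 libraries, all of which entered the fit so that each gene's spread was shared over 7 groups, and 5 of which were compared. Per the labels' protocols, cells were sorted into Trizol, cDNA was made from amplified RNA (SMART-Seq V4), and Kapa libraries were read from both ends. The authors deposited raw counts of fragments per gene, made with featureCounts 1.6.2 in paired mode by gene name on GENCODE M17 (GRCm38), per the file headers. The headers show no strand option, so overlapping genes were not told apart. Quality control with FastQC, STAR alignment and DESeq2 are listed in the submitters' processing notes without versions, beside GRCm38 and mm10. Each table held 53656 genes. Totals of the 5 libraries ran from 41903615 to 48274559 counts, where a gene without counts has an upper limit of 3 counts. Limits and intervals cover counting error only.

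Counts were scaled by TMM, filtered by filterByExpr and tested with edgeR 4.0.16 in R 4.3.3, by robust quasi-likelihood F tests and by glmTreat against a 2-fold change, with Benjamini-Hochberg adjustment over 18608 genes. Standard errors were worked back from the F statistic. For genes at 0 in a group, folds are bounds against 3 counts over that group. Gene lists were described by counts and medians, with no test. Some list members are counted but not reported here by name. Named genes were Tox, the sort markers, from each of 26 T cell lists the 2 genes of smallest p, the 8 largest rises and 8 largest falls among genes called beyond 2-fold whose libraries did not overlap and with at least 10 CPM in every library of the higher group, and the 8 rises and 8 falls with the smallest p, leaving out other-cell genes, receptor segments and mitochondrial genes. Other list members were chosen after their values were seen. The comparison and the lists were chosen with earlier results of these data known. GC content and length came from GENCODE M21 transcripts (GRCm38), matched by name or position for 99.8% of tested genes, and promoters from RefSeq (GRCm38.p6). The fit was tested on simulated data. Pairs of libraries within a group were further apart than counting noise allows (chi-square over degrees of freedom 69.9 to 438).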

Additional observations from a re-analysis of the deposited data

How the results depend on the processing

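Genes called higher and lower, and higher and lower beyond 2-fold, were 3369, 3267, 1406 and 2126. Rises beyond 2-fold numbered 890 with library totals alone, 2241 with upper quartile scaling and 2272 with the TOX-GFP libraries joined to GFP. With a hepatocyte covariate the counts were 1920, 2055, 651 and 1355. This covariate was 0.400 and 0.571 CPM in GFP libraries against 85.8 to 673 CPM in marker-low libraries. It thus runs with the contrast and cannot give the share of calls due to hepatocyte RNA. Leaving out 1 library gave 1847 to 3203 genes higher, 2054 to 2987 lower, 552 to 1455 higher beyond 2-fold and 1192 to 1899 lower beyond 2-fold; the lowest values came without GFP library 2, and without GFP library 1 they were 1878, 2513, 660 and 1597. Without either GFP library, 1 remains, assumed to vary like the other groups. DESeq2 1.42.0 called 4152, 3609, 1326 and 1778. Alternatives chosen after seeing the data follow. After the GC and length offset, 1386 genes fell beyond 2-fold. Marker-low library 3 alone gave 2037, 1511, 560 and 726, and together with the offset 1829, 1334, 589 and 609. A macrophage covariate gave 277, 357, 69 and 138; this measure was 3.29 and 4.05 CPM in GFP libraries against 787 to 9517 CPM in marker-low libraries, and so nearly repeats the contrast. Among called genes that the text names, reversed log2 fold changes were Tnfsf8 (0.065), Dnaja1 (0.57), Cd226 (1.48) and Bcl2l1 (-0.19) with the offset, Tnfsf8 (0.12), Tnfrsf14 (-0.25), Dnaja1 (0.60), Cd226 (1.47) and Bcl2l1 (-0.06) with the offset and library 3 alone, Entpd1 (-0.33), Fn1 (-1.78), Lair1 (-2.58), Tbx21 (2.71), Cxcl16 (-2.08), Lyz2 (-0.86) and Marco (-4.89) with the macrophage covariate, and Marco (-0.68) with the hepatocyte covariate. Of these, Cd226 was called in the other direction with the offset (edgeR adjusted p = 2.23e-04) and with the offset and library 3 alone (0.00224); the cause was not tested. Replicate numbers did not pair the libraries (correlations of deviations from -0.05 to 0.05), and with a replicate block 3195, 3292, 1285 and 2226 genes were called, and of the called genes that the text names Ccl1 and Bcl2l1 lost their calls (edgeR adjusted p = 0.0557 and 0.0744). With 3 against 2 libraries, RNA of other cells, sex, culture and library batch cannot be told apart from the contrast, and genes under about 3 counts in a library are not resolved at this depth.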
